A study of Mus musculus with 3 samples.

Results

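The 10 genes described here, on which blood formation depends, are 8 transcription factors and cofactors, the erythropoietin receptor and a nuclear regulator of blood cells, measured in mouse embryoid bodies with and without a truncated Dido3 protein.
They are Gata1, Gata2, Klf1, Tal1, Runx1, Lmo2, Nfe2, Gfi1b, Epor and Hemgn, and they were chosen by name as the array's own annotation spells them.
The array held 11 probes for these 10 genes, of 39429 probes and 30458 gene names in all, with a pair of probes for Runx1 and 1 for each other gene.
Of the 10 genes, 6 were bright enough to test, of 15427 genes tested, and Gata2, Runx1, Nfe2 and Gfi1b were not.

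The mutant embryoid bodies are labelled Dido3deltaCT, a truncation of the C-terminal end of Dido3, a large chromatin-associated protein of the Dido1 locus, and they were set against wildtype controls.
Embryoid bodies are clumps of embryonic stem cells that differentiate into mixed tissues. Both genotypes were cultured in parallel, floating in low attachment plates for 10 days in the absence of LIF, the factor that holds stem cells undifferentiated.
There were 3 mutant and 3 wild type samples, called biological replicates in the labels, with 1 sample of each genotype on each of 3 two-colour Agilent arrays, all on 1 slide.
The labels leave unsaid whether these came from separate cell lines or repeated cultures of one, so the p-values may measure only the spread between cultures. The mutant dye was Cy3 on replicates 1 and 3, with Cy5 used on replicate 2.

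In the embryo and in embryoid bodies, the first red cells arise from mesoderm. Tal1, Lmo2, Runx1 and Gata2 act early, in progenitors that can give blood and vessel cells, and Tal1 and Lmo2 join GATA factors, Ldb1 and E proteins in a DNA-binding complex.
Gata1 and Klf1 then drive the red cell programme, with Nfe2 at the globin genes and Gfi1b as a repressor. Epor receives erythropoietin, the hormone that keeps red cell precursors alive, and Hemgn is expressed in blood-forming cells downstream of Gata1.

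GATA factors bind DNA at GATA and Klf1 binds at CACCC, so the promoters of 4 of these genes that are known as Gata1 targets in blood cells are shown. They are the 250 bases upstream of the RefSeq start on GRCm38.p6, 5′ to 3′ on the gene's strand, of Gata1 (chrX:7967911-7968160, minus strand), Klf1 (chr8:84901732-84901981, plus strand), Epor (chr9:21963577-21963826, minus strand) and Hemgn (chr4:46404184-46404433, minus strand).
Capitals mark GATA and CACCC on either strand, so TATC is GATA, and GGGTG is CACCC, read on the opposite strand.
Gata1: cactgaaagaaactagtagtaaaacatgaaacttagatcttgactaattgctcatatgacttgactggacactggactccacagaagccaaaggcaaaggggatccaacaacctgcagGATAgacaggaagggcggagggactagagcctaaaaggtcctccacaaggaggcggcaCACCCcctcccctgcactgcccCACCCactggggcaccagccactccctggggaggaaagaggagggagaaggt
Klf1: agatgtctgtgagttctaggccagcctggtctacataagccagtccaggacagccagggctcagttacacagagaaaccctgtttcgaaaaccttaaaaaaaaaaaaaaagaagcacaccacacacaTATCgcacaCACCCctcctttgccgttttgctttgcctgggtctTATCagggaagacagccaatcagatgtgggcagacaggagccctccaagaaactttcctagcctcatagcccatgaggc
Epor: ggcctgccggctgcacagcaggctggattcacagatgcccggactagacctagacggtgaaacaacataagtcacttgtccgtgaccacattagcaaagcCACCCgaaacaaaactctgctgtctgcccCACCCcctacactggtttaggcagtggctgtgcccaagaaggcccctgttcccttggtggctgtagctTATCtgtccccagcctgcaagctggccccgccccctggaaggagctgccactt
Hemgn: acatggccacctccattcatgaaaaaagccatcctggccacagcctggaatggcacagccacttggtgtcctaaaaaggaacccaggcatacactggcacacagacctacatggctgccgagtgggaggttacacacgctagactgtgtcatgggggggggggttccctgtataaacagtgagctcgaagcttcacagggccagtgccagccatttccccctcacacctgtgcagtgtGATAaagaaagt

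All 4 promoters shown hold GATA, at 1 position in Gata1, 2 in Klf1, 1 in Epor and 1 in Hemgn, and 3 of the 4 hold CACCC. RefSeq promoters were matched for 8 of the 10 genes, 11 promoters in all, and those of Lmo2 and Nfe2 were not analysed here.
GATA was in 7 of these 11 and in 53.6% of all 32851 promoters, and CACCC was in 7 of 11 and in 52.0% of all. Among the promoters not shown, those of Gata2 hold GATA at 0 positions, as does 1 each of Tal1 and Runx1.
The E box CANNTG, the letters that Tal1 and its E protein partners read, was in 6 of 11 and 66.2% of all. The Runx1 motif TGTGGT was in 2 of 11 and 14.0% of all, and the ETS core TTCC in all 11 and in 93.4% of all. Each motif was searched on both strands, matches may overlap (GATATC holds GATA on both strands), and a match describes letters only.

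None of the 6 testable genes passed the test (limma on log2 ratios of mutant over wild type, Benjamini-Hochberg adjusted p under 0.05), beside 0.298% of all genes called, 0.207% higher and 0.0907% lower in the mutant.
Gata1 was measured at higher levels in the mutant on all 3 arrays, by 1.64-fold on average, and Lmo2 at lower levels on all 3, by 2.00-fold, but neither difference passed.
At an unadjusted p under 0.05, 2 of the 6 genes passed, Gata1 and Lmo2, against 22.7% of all genes. A ratio above 0 on all 3 arrays was seen for 2 of the 6, Gata1 and Klf1, against 21.7% of all genes. A ratio below 0 on all 3 was seen for 1, Lmo2, against 22.7%.
Over the 3 mutant and 3 wild type normalised values the genotypes overlapped for all 6 tested genes, whereas they did not overlap for 21.3% of all genes tested. They overlapped too for the 5 probes too dim to test, which that share does not cover. In RNA from whole embryoid bodies, fewer cells of a type and less RNA per cell cannot be told apart.

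**Figure D1:**
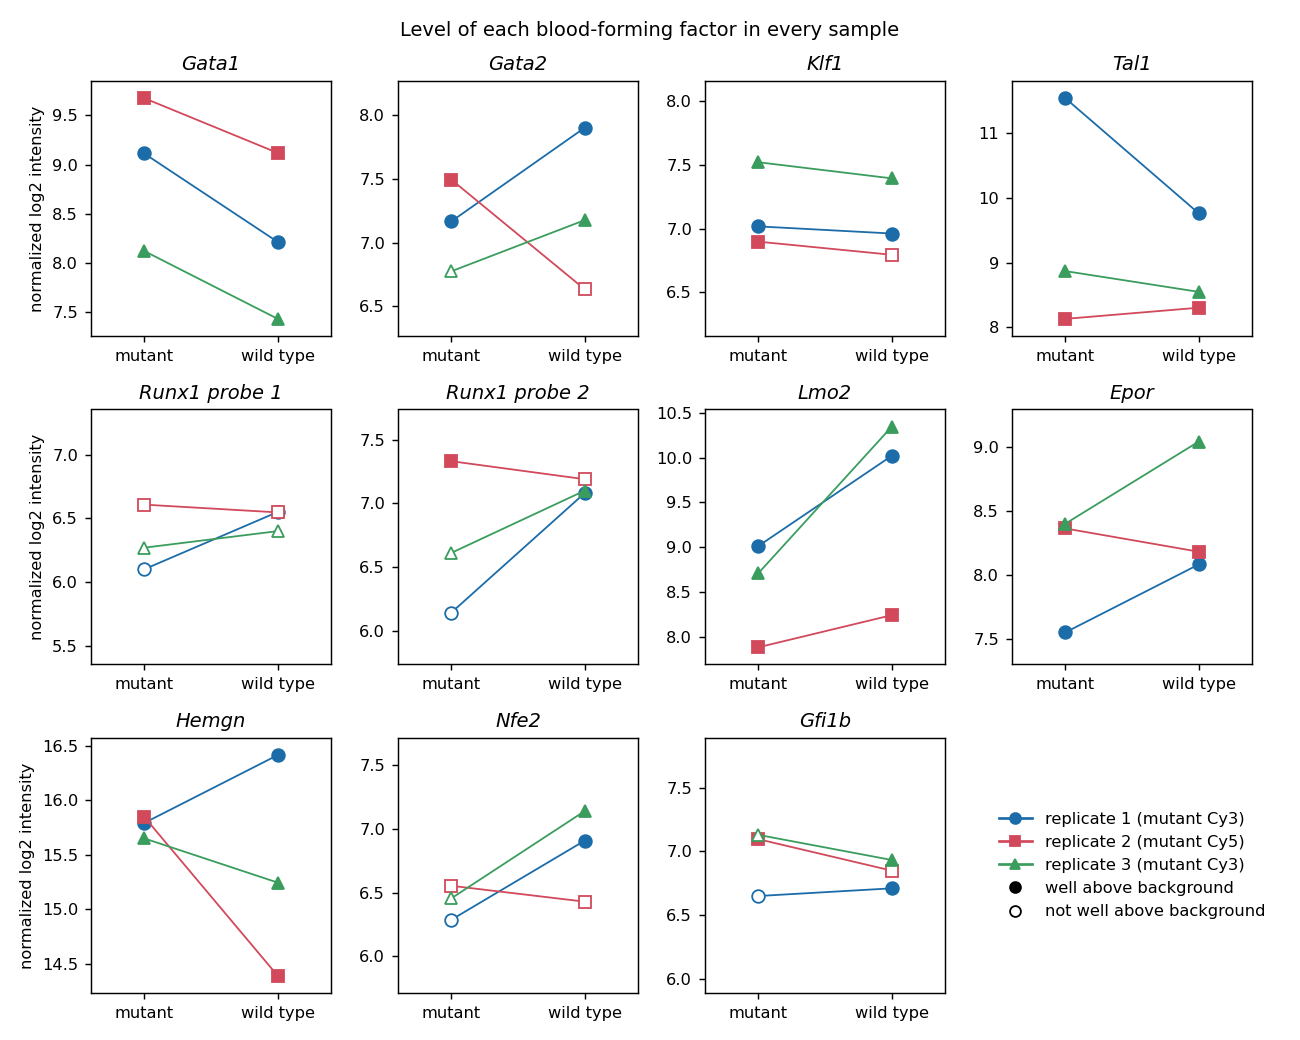
Normalised log2 intensity of each of the 11 probes, with mutant on the left and wild type on the right of each panel and a line joining the samples of 1 array. Filled points were well above background and open points were not, and the y axis differs between panels. The mutant value of Gata1 is the higher and that of Lmo2 the lower of each pair, while the arrays lie apart by more than the genotypes for both genes.

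Dido1, the mutated locus, was read by 4 probes that disagreed in direction. On 3 of them the mutant was higher, by mean log2 ratios of 1.74, 1.12 and, where no wild type sample was well above background, 1.36. On 1 it was lower, at -1.92. The genotypes overlapped on the first of these probes and not on the other 3. Where these probes lie relative to the truncation was not established here.
Spots flagged as well above background made up 46.5% to 62.5% of each mutant channel, against 48.5% to 74.4% of each wild type channel. By dye the shares were 46.5% to 62.3% for Cy3 and 62.5% to 74.4% for Cy5.
Over genes, which are not independent, ratios correlated at 0.879 between replicates 1 and 3 and at 0.151 and 0.180 between replicate 2 and replicates 1 and 3. Replicate 2 therefore stands apart, and it is also the array with the other dye orientation, so the array and the dye cannot be told apart.
Of the 15427 genes, 32 were called higher and 14 lower in the mutant. Without replicate 1 these counts were 3 and 2, without replicate 2 they were 3958 and 3342, and without replicate 3 they were 9 and 9. The ratios of the 10 genes, the list medians and the called list genes were therefore also computed without each array, and the ratios of list genes that did not pass were not.

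Gata1, the master regulator of red cell and megakaryocyte genes, was read by a probe at chrX:7536392-7536451 of the mouse build mm9, minus strand. Its normalised log2 intensity was 9.11, 9.68 and 8.12 in mutant replicates 1, 2 and 3, against 8.21, 9.12 and 7.43 in wild type replicates 1, 2 and 3.
The mutant sample was the higher of its pair each time, but the lowest mutant sample lay below 2 of the 3 wild type samples. The arrays' mean levels spanned 1.62 log2 units, more than the difference between genotypes.
The log2 ratios were 0.90, 0.56 and 0.69, with a mean of 0.72 ± 0.24 (SE, n = 3 arrays, 95% interval 0.10 to 1.33) and a limma adjusted p of 0.172.
Over the 14 alternative processings the log2 ratio lay between 0.38 and 0.95, with limma adjusted p between 0.0194 and 0.842. Many of these could not change its sign. With 1 probe, the filter, probe-mean and unpaired settings return the same ratio. With the ratios of all 3 arrays above 0, leaving out an array or adding a dye term keeps the mean above 0. Without replicate 2 the ratio was 0.80 with an adjusted p of 0.0194, where 25.7% of all genes were called higher. With a term for the dye it was 0.68 with a limma adjusted p of 0.0300, where 15.8% were. Both fits are limited. Without replicate 2 every sample of a genotype carried the same dye, so genotype and dye cannot be told apart there. In the fit with the dye term, the other dye orientation came from replicate 2 alone.

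Lmo2, the bridging protein of the Tal1 and GATA complex, was read at chr2:103821857-103821916 of mm9, plus strand. Its normalised log2 intensity was 9.01, 7.89 and 8.71 in mutant replicates 1 to 3, against 10.02, 8.24 and 10.34 in the wild type samples of the same arrays.
The mutant sample was the lower of each pair, and the wild type sample of replicate 2 lay below 2 of the 3 mutant samples. Unlike Gata1, for which replicate 2 was the brightest array, Lmo2 was dimmest on replicate 2 in both genotypes.
The log2 ratios were -1.01, -0.36 and -1.63, with a mean of -1.0 ± 0.33 (SE, n = 3 arrays, 95% interval -1.84 to -0.16) and a limma adjusted p of 0.167.
Over the 14 alternatives the ratio lay between -1.32 and -0.54. As for Gata1, the filter, probe-mean and unpaired settings return the same ratio for the single probe. With the ratios of all 3 arrays below 0, leaving out an array or adding a dye term could not change the sign. Without replicate 2 it was -1.32 with a limma adjusted p of 0.00806, where 21.7% of all genes were called lower. With the dye term it was -0.84 with a limma adjusted p of 0.0293, where 14.9% were. The limits given for Gata1 on these fits apply here too.

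The Gata1 ratio exceeded the Lmo2 ratio on each array, by 1.91, 0.92 and 2.33 log2 units, a mean difference of 1.72 ± 0.72 (SD, n = 3). Differences were taken after both ratios were seen, and the smallest p that an exact two-sided test of 3 arrays can give is 0.25, so this difference was not tested.

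Tal1, the helix-loop-helix factor that blood cannot form without, was read at chr4:114744219-114744278 of mm9, plus strand. Its normalised log2 intensity was 11.55, 8.13 and 8.87 in mutant replicates 1 to 3, against 9.76, 8.30 and 8.55 in wild type replicates 1 to 3.
Replicate 1 was the high array in both genotypes. Before normalisation the spot read 2938 intensity units in the mutant and 1186 in the wild type channel of that array, against 242 to 314 in the mutant and 333 to 363 in the wild type channel of the other arrays.
The log2 ratios were 1.79, -0.17 and 0.32, with a mean of 0.64 ± 0.44 (SE, n = 3 arrays, 95% interval -0.47 to 1.76) and a limma adjusted p of 0.437. Without replicate 1 the ratio was 0.07, so the size of the Tal1 difference rests on that array.
The authors' deposited log2 ratios for this spot are 0.02, -0.14 and 1.34 in the columns of replicates 1, 2 and 3. The high value stands there under replicate 3, and over all spots the columns of replicates 1 and 3 correlated better with each other's scanner file than with their own. Replicate numbers 1 and 3 are therefore uncertain between these sources, and those of the scanner files are used.

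Klf1, the activator of adult globin genes, was read at chr8:87428881-87428940 of mm9, plus strand, near the limit of detection. Its normalised log2 intensity was 7.02, 6.90 and 7.52 in mutant replicates 1 to 3, against 6.96, 6.79 and 7.39 in wild type replicates 1 to 3, where it was above background on 2 of 3 arrays.
The genotypes lay within 0.13 of each other on each array. The log2 ratios were 0.06, 0.10 and 0.13, with a mean of 0.10 ± 0.23 (SE, n = 3 arrays, 95% interval -0.50 to 0.69) and a limma adjusted p of 0.833. Their sign turned to -0.0133 in the authors' deposited values.

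Hemgn, a nuclear protein of blood-forming cells, was read at chr4:46407248-46407307 of mm9, minus strand, and gave a strong signal in every sample. The spot's mean signal was 46177, 69365 and 37914 intensity units in mutant replicates 1 to 3, against 102744, 23626 and 42093 in wild type replicates 1 to 3, with no spot saturated. With 1 probe for this gene, whether the signal comes from Hemgn transcripts alone was not tested.
After normalisation the log2 intensity was 15.79, 15.85 and 15.65 in the mutant samples and 16.41, 14.39 and 15.25 in the wild type samples. The 3 mutant samples lay inside the range of the wild type samples, with an SD of 0.10 in the mutant and 1.01 in the wild type.
The log2 ratios of -0.62, 1.46 and 0.41 averaged 0.41 ± 0.44 (SE, n = 3 arrays, 95% interval -0.72 to 1.55), with a limma adjusted p of 0.617. Without replicate 2 the mean ratio was -0.11, so its sign rests on that array.

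Epor, the receptor through which erythropoietin acts on red cell precursors, was read at chr9:21763422-21763481 of mm9, minus strand. Its normalised log2 intensity was 7.55, 8.36 and 8.40 in mutant replicates 1 to 3, against 8.08, 8.18 and 9.05 in wild type replicates 1 to 3.
The mutant sample was the lower of the pair on replicates 1 and 3 and the higher on replicate 2. The log2 ratios were -0.53, 0.18 and -0.65, with a mean of -0.33 ± 0.28 (SE, n = 3 arrays, 95% interval -1.06 to 0.39) and a limma adjusted p of 0.532.
Without replicate 2 the ratio was -0.59 with an adjusted p of 0.0434, where 21.7% of all genes were called lower. Without that array every sample of a genotype carried the same dye, so genotype and dye cannot be told apart there. The Gata1 ratio exceeded that of Epor by 1.44, 0.38 and 1.34 on the 3 arrays.

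**Figure D2:**
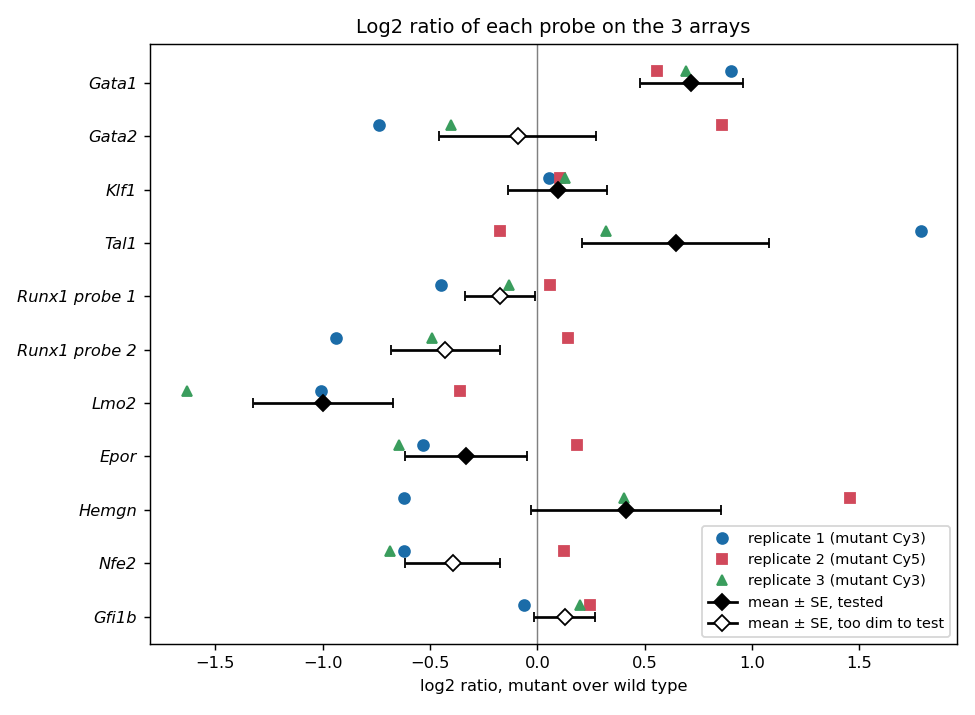
Log2 ratio of mutant over wild type for each of the 11 probes, with coloured points for the 3 arrays and diamonds for the limma mean with its SE. Open diamonds mark the probes too dim to test, which were fitted with all probes. The points of Gata1 lie above 0 and those of Lmo2 below 0, while 5 probes have replicates 1 and 3 below 0 and replicate 2 above it.

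The other 5 probes, of Gata2, Runx1, Nfe2 and Gfi1b, were not well above background on all 3 arrays in either genotype. Of 15 readings per dye, 12 were above background in Cy5 and 1 in Cy3. Over all spots the shares per array were 62.5% to 74.4% in Cy5 and 46.5% to 62.3% in Cy3. Each genotype was in Cy3 on some array, so a probe above background only in Cy5 fails the filter. Choosing probes by that failure therefore favours such a skew. A fit over all probes regardless of brightness, which called 0 of 39414 probes with limma and had 16.1% of them at an unadjusted p under 0.05, gave the values below.

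Gata2, which keeps blood progenitors dividing, was read at chr6:88156362-88156421 of mm9, plus strand. Its normalised log2 intensity was 7.17, 7.50 and 6.77 in mutant replicates 1 to 3, against 7.90, 6.63 and 7.18 in wild type replicates 1 to 3, and it was above background on 2 of 3 arrays in each genotype.
The log2 ratios of -0.74, 0.86 and -0.40 averaged -0.09 ± 0.37 (SE, n = 3 arrays), with a limma adjusted p of 0.952. No direction can be given, since the sign changed in 5 of 10 alternatives.

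Runx1, which starts blood formation from endothelium, had probes at chr16:92604413-92604472 and chr16:92605785-92605844 of mm9, minus strand. The first was above background on 0 of 3 mutant and 1 of 3 wild type arrays, at log2 intensities of 6.10, 6.61 and 6.27 in mutant and 6.55, 6.55 and 6.40 in wild type samples.
The second was above background on 1 of 3 mutant and 2 of 3 wild type arrays, at 6.14, 7.33 and 6.61 in mutant and 7.08, 7.19 and 7.10 in wild type samples. The mean log2 ratios were -0.17 ± 0.16 and -0.43 ± 0.25 (SE, n = 3 arrays), with limma adjusted p of 0.727 and 0.543.
Both probes were lower in the mutant on replicates 1 and 3 and higher on replicate 2.

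Nfe2, the partner of small Maf proteins at the globin locus, was read at chr15:103078838-103078897 of mm9, minus strand. It was above background in 0 of 3 mutant and 2 of 3 wild type samples, at log2 intensities of 6.29, 6.55 and 6.46 in mutant and 6.91, 6.43 and 7.14 in wild type samples.
The measured log2 ratios of -0.62, 0.12 and -0.69 averaged -0.39 ± 0.22 (SE, n = 3 arrays, 95% interval -1.01 to 0.22, limma adjusted p 0.520). The genotype means alone, set against the lowest signal well above background, give 1.13-fold lower in the mutant. This is not a firm bound, since the wild type mean includes replicate 2, which was not above background. The value also leaves out the spread between arrays and is open to dye bias, while the interval of the measured ratio includes 0. The same calculation for the first Runx1 probe gave 0.89-fold, which is no drop.
Without replicate 2 the probe's ratio was -0.65 with an adjusted p of 0.0399, where 10.5% of all probes were called lower and genotype and dye cannot be told apart.

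Gfi1b, a repressor needed for red cells and platelets, was read at chr2:28464982-28465041 of mm9, minus strand. Its log2 intensity was 6.65, 7.10 and 7.13 in mutant replicates 1 to 3, against 6.71, 6.85 and 6.93 in wild type replicates 1 to 3, above background in 1 of 3 mutant and 2 of 3 wild type samples.
The log2 ratios of -0.06, 0.25 and 0.20 averaged 0.13 ± 0.14 (SE, n = 3 arrays), with a limma adjusted p of 0.774.

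There were 5 probes, those of Gata2, Epor and Nfe2 and both of Runx1, with ratios below 0 on the arrays whose mutant RNA was in Cy3 and above 0 on the array whose mutant RNA was in Cy5. The same pattern was seen for 18.6% of the 39084 probes with a ratio on all 3 arrays. With a dye term in the fit the Epor ratio was -0.20 and that of the Gata2 probe 0.15.
When the filter was widened, after the data were seen, to probes above background in Cy5 on all 3 arrays, 9 of the 10 genes could be tested and 0 of them were called, beside 0.503% of genes called higher and 0.297% lower. The widened test gave adjusted p of 0.919 for Gata2, 0.479 for Runx1 and 0.803 for Gfi1b.

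**Figure D3:**
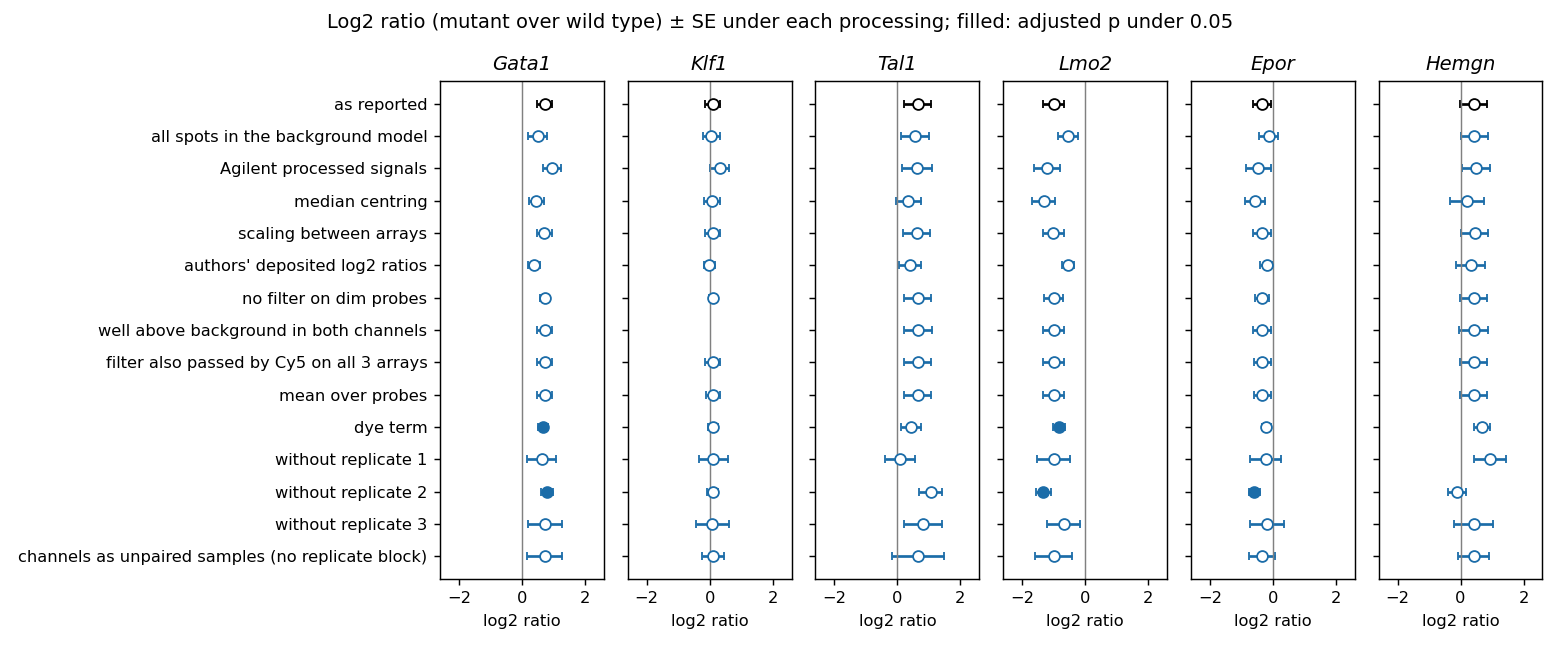
Mean log2 ratio of mutant over wild type with its SE for the 6 tested genes, with a row for the processing as reported and for each alternative. Filled points have an adjusted p under 0.05, which only Gata1, Lmo2 and Epor reached, without replicate 2 or, for Gata1 and Lmo2, with a dye term.

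The genes whose ratios ran closest to those of Gata1 over the 3 arrays were Tbccd1, Tnfrsf13b and Zfp418, at Euclidean distances of 0.0485, 0.0604 and 0.0918 log2 units among 15421 other genes. Tbccd1 had ratios of 0.86, 0.56 and 0.71. Over 3 arrays, such closeness is a description of these ratios only.

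Genes that work with the 10 were read from lists, with the median log2 ratio of all tested genes at 0.03. Of the 18 listed partners of the Gata1, Tal1 and Lmo2 complex 14 were tested, 0 passed in either direction, and their median was -0.30. Of the 14, 11 lay below 0, and 7 of the 14 did so on all 3 arrays, against 22.7% of all genes.
The smallest p-values were those of Tcf12, an E protein that pairs with Tal1, Ssbp2, which stabilises Ldb1, and Cbfb, the partner of Runx1. Their log2 ratios were -1.23 ± 0.24, -2.06 ± 0.47 and -0.62 ± 0.27 (SE, n = 3 arrays each), with limma adjusted p of 0.0747, 0.0929 and 0.258.
Another tested probe of Tcf12 gave -0.88 and another of Ssbp2 gave -2.09. Ldb1 itself had ratios of -0.68, 0.81 and -0.44 and the Gata1 cofactor Zfpm1 -0.60, 0.11 and 0.22.

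Among 25 other blood transcription factors 11 were tested and 0 passed, with a median of -0.12 that changed sign in 5 of 14 alternatives. Myb, which keeps progenitors proliferating, and Etv2, which opens the blood and vessel programme, had ratios of 1.51 ± 0.25 and 1.17 ± 0.25, and Fli1, an ETS factor of both lineages, -1.12 ± 0.23 (SE, n = 3 arrays each). Their limma adjusted p were 0.0618, 0.0865 and 0.0814.
Fli1 was well above background in 1 of 3 mutant and 3 of 3 wild type samples, so its mutant level is near the limit of detection. A second Etv2 probe gave 0.70. Spi1 and Cebpa, factors of white cells, were on no array well above background. Others of the list too dim to test were on some, such as Irf8 and Ebf1, each in 2 of 3 samples of each genotype.

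Of 17 relatives of the 10 genes by family 12 were tested and 0 passed, with a median of -0.37. The 2 lowest p-values were those of Klf2, at 2.42 ± 0.30 with an adjusted p of 0.0543, and Gata6, an endoderm factor, at -2.80 ± 0.40 with an adjusted p of 0.0558 by limma (SE, n = 3 arrays each).
Lmo4 followed with -1.46 ± 0.37 and an adjusted p of 0.113. The Gata1 ratio exceeded that of its relative Gata6 by 4.70, 2.63 and 3.21 log2 units on the 3 arrays, a difference chosen with both values known.

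Among 24 receptors and signalling genes of blood growth factors 15 were tested and 0 passed, with a median of -0.52, and 9 of the 15 lay below 0 on all 3 arrays, against 22.7% of all genes. The ratios of 5 of the 15, Csf2ra, Socs1, Ptpn6, Pim1 and Gab1, lay above 0 on all 3, against 21.7%. Kit, the receptor of stem cell factor, had log2 ratios of -2.76, -1.60 and -1.39, a mean of -1.92 ± 0.35 with a limma adjusted p of 0.0698.
Csf2ra, a receptor chain for GM-CSF, had 1.03 ± 0.32 with an adjusted p of 0.155, and Bcl2l1, the survival gene that erythropoietin induces, -0.57 ± 0.23 with an adjusted p of 0.230 by limma (SE, n = 3 arrays each). Jak2 and Stat5b, which carry the Epor signal, had mean ratios of -0.59 and -0.52, and neither passed.

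Of 40 listed gene names of globin, heme and red cell membrane genes, many of them targets of Gata1 and Klf1, 21 were tested, 0 were called higher and 1 lower, Hbb-bh1, an embryonic beta-like globin. Its log2 ratios were -4.59, -3.20 and -3.94, a mean of -3.91 ± 0.34 (SE, n = 3 arrays) with a limma adjusted p of 0.0416.
The call was kept in 8 of 14 alternatives and lost, among others, without replicate 1, where the ratio was -3.57. The list's median was -0.41, and it was -0.21 without replicate 1, -0.70 without replicate 2 and -0.11 with no filter on dim probes. Of the 21, 14 lay below 0 and 7 above.
On all 3 arrays 10 of the 21 lay below 0, against 22.7% of all genes, and 4 above, against 21.7%. Of those below, Hba-x, Hba-a1, Ahsp, Uros and Gypc passed the brightness filter only through wild type, where they read higher. With both channels above background 15 genes of the list were left, with a median of -0.21. The 4 above 0 on all 3 were Urod and Fech, enzymes of heme synthesis, Car2, a carbonic anhydrase, and Rhd, a red cell membrane protein. Car2 had a log2 ratio of 1.51 ± 0.27 and Rhd of 2.05 ± 0.63 (SE, n = 3 arrays each), with limma adjusted p of 0.0685 and 0.152.
Hba-a2, an adult alpha globin, had -1.85 ± 0.25 and Cd24a, a surface protein of red cell precursors and other cells, -1.69 ± 0.26, with limma adjusted p of 0.0543 and 0.0580. The near-identical copy Hba-a1 can share signal with Hba-a2.
Sptb, Ank1, Epb42, Rhag, Car1 and Trim58, proteins of the maturing red cell, were on no array well above background. The Gata1 ratio exceeded that of Hbb-bh1 by 5.49, 3.76 and 4.64 log2 units on replicates 1 to 3.

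**Figure D4:**
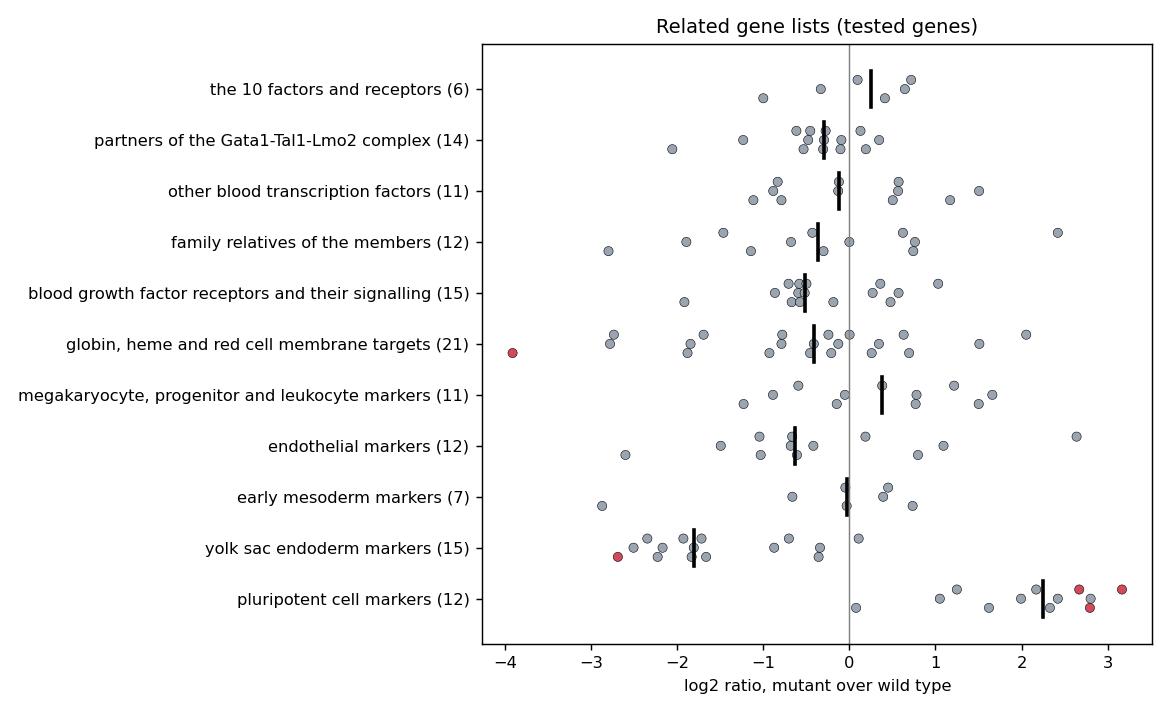
Log2 ratio of mutant over wild type for each tested gene of each list, with the number tested in brackets and a bar at the median. Red points passed the test over all genes. The 6 tested factors and receptors lie between -1.0 and 0.72, while yolk sac endoderm markers have a median of -1.81 and pluripotent cell markers of 2.25.

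Markers of other cells that embryoid bodies can hold were read from the same arrays. Of 12 pluripotent cell markers all were tested and 3 were called higher in the mutant. These were Zfp42 by 3.17 ± 0.26, Dppa5a by 2.67 ± 0.24 and Dppa2 by 2.79 ± 0.25 log2 units (SE, n = 3 arrays each, limma adjusted p 0.0416 for each). These calls were kept in 7, 7 and 6 of 14 alternatives and were lost without replicate 1 and without replicate 3. A second Dppa2 probe gave 2.18, 0.06 and 3.36.
Mean ratios lay above 0 for all 12, and 10 of the 12 lay above 0 on all 3 arrays, against 21.7% of all genes. The mean log2 intensity over the 12 ranged over 12.83 to 13.55 in mutant and 10.90 to 11.41 in wild type samples. Klf2 is counted in that list too.
Of 15 yolk sac endoderm markers all were tested and 1 was called lower in the mutant, since Rbp4 fell by 2.69 ± 0.25 log2 units (SE, n = 3 arrays, limma adjusted p 0.0432), a call kept in 6 of 14 alternatives and lost without replicate 1 and without replicate 3. Mean ratios lay below 0 for 14 of the 15, and 13 of the 15 lay below 0 on all 3 arrays, against 22.7% of all genes. Sox7 had -2.51 and Afp -2.23, each with a limma adjusted p of 0.0502. The list's mean intensity ranged over 9.34 to 11.83 in mutant and 11.18 to 13.04 in wild type samples.

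Of 16 endothelial markers 12 were tested and 0 passed, with a median of -0.64. Robo4 had a log2 ratio of 2.64, Cdh5 -1.49 and Sox17 -2.60, with limma adjusted p of 0.0558, 0.0629 and 0.0645. Robo4 was well above background in 3 of 3 mutant and 2 of 3 wild type samples and Cdh5 in 2 of 3 mutant and 3 of 3 wild type samples. The list's mean intensity ranged over 8.57 to 9.04 in mutant and 9.12 to 9.23 in wild type samples.
Of 12 early mesoderm markers 7 were tested and 0 passed, with a median of -0.03 that was 0.14 without replicate 2 and 0.05 with the widened filter. Pdgfra had -2.87, Hand1 -0.66 and Eomes 0.73, with limma adjusted p of 0.0526, 0.223 and 0.237, and the mean intensity ranged over 9.50 to 9.73 in mutant and 9.78 to 9.94 in wild type samples.
Of 28 megakaryocyte, progenitor and leukocyte markers 11 were tested and 0 passed, 6 of them above and 5 below 0, with a median of 0.38 that was -0.05 when both channels had to be above background. Laptm5 had 1.22, Ly6a 1.50 and Spn 1.66, with limma adjusted p of 0.0850, 0.104 and 0.105. Laptm5 was well above background in 3 of 3 mutant and 1 of 3 wild type samples and Spn in 3 of 3 mutant and 2 of 3 wild type samples. The list's mean intensity ranged over 8.56 to 8.62 in mutant and 8.21 to 8.38 in wild type samples. The defining markers Ptprc, Mpo, Gp1ba, Gp1bb, Gp5, Gp9 and Slamf1 were on no array well above background.
The red cell list's mean intensity ranged over 9.33 to 9.88 in mutant and 10.15 to 10.42 in wild type samples. For these lists, and for the share of each cell type in the embryoid bodies, their part in the ratios of the 10 genes was not tested.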

How the data were processed

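RNA of 3 mutant and 3 wild type embryoid body samples was amplified, labelled and hybridised in pairs, per the labels' protocols. The deposited scanner files come, per the file headers, from Agilent Feature Extraction 10.7.3.1 and hold unnormalised mean and local background intensity values per spot, processed intensity values, and other columns of flags; probe positions are on mm9. The authors' deposited table holds log2 ratios, mutant over wild type when set against the scanner values, with column medians of -0.04, 0.01 and -0.01. The submitters' processing notes name limma, and its version and settings are not given in the sources used here. Its centring is unknown.

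Mean intensity values were background-corrected (normexp, offset 50) and loess-normalised within arrays with 1377 control spots at weight 0, in R 4.3.3 with limma 3.58.1. On replicate 3, 7 spots with a flagged local background above 10 times the median took the array's median background in the fit and were left out. Outlier-flagged spots (317, 364 and 438) were left out. Signs were turned to mutant over wild type. Levels are single-channel log2 intensity values after loess and Aquantile scaling, and no probe's level is set against another's. A probe was kept if either genotype was well above background on every array (19141 of 39429), with the brightest per gene. Accessions matched for 26761 probes (67.9%) and changed 2878 names, by a GRCm38.p6 table used for names and promoters. Log2 ratios were tested against 0 (lmFit, eBayes, two-sided, 2 residual and 3.04 prior degrees of freedom) with Benjamini-Hochberg adjustment at 0.05. The fit was run on simulated ratios with independent errors, no dye or array structure, and changes larger than any of the 10 genes had. Whether changes of the members' size would be called was therefore not tested. Only 3 arrays limit the precision, and intervals are at 95%. The fold value given for Nfe2 from the genotype means sets the brighter genotype's mean over all 3 arrays against a floor. That floor is the mean of the higher of the lowest signal well above background and the dim probe's own.

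Testing ratios pairs the samples of each array. All 3 arrays lie on 1 slide, so no batch could be tested. The members and lists were chosen with earlier results of these data known. Named genes are the 10 members, each list's called genes and its 3 with the smallest p, and the 3 genes closest to Gata1. Besides these, some list markers above background on no array and the mutated locus Dido1 are named. Ldb1, Zfpm1, Jak2, Stat5b, Hba-a1, Hba-x, Ahsp, Uros, Gypc, Socs1, Ptpn6, Pim1, Gab1, Urod, Fech, Car2 and Rhd were named after their values were seen. The alternatives were other background, scaling, filter and probe settings, a dye term, unpaired channels, the authors' values and leaving out each replicate. Figures used matplotlib 3.10.9 on Python 3.11.15.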

Additional observations from a re-analysis of the deposited data

How the results depend on the processing

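Genes called higher and lower in the mutant numbered 32 and 14 as reported. They numbered 0 and 0 with all spots in the background model, where limma called none, 261 and 167 with Agilent's processed signals, 4 and 3 with median centring, 63 and 46 with scaling between arrays, and 0 and 0 with the authors' deposited log2 ratios. They numbered 1 and 1 without a filter on dim probes, 3 and 1 with both channels above background, 88 and 52 with the filter widened to Cy5 (chosen after seeing the data), 67 and 36 with the mean over probes, 2445 and 2298 with a dye term, and 179 and 96 with the channels as unpaired samples, that is, with no replicate block. Leaving out each replicate gave 3 to 3958 higher and 2 to 3342 lower. The unpaired fit called none of the 6 tested members. Median centring moved the median of all genes by -0.26. At an unadjusted p under 0.05 these had 1684 genes with all spots in the background model and 3057 in the authors' values. The cause of these differences was not tested, except that fewer arrays or genes enter some of them by construction.

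The dye term gave Gata1 0.68 and Lmo2 -0.84, both then called. Leaving out each replicate gave Gata1 0.63 to 0.80, Lmo2 -1.32 to -0.68, Epor -0.59 to -0.18, Tal1 0.07 to 1.05, Klf1 0.08 to 0.11 and Hemgn -0.11 to 0.93, with Hemgn reversed without replicate 2. Klf1 was reversed in the authors' values (-0.0133) and gave no value with both channels above background. The Gata2 probe was reversed with all spots in the background model (0.0390), processed signals (0.0438), the dye term (0.146) and without replicates 1 and 3 (-0.57 to 0.23 over the 3). No other member changed sign, though for Gata1 and Lmo2 many of these settings could not have changed it.

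Medians that moved by more than their spread between arrays were, with median centring, -0.63 for complex partners, -0.69 for family relatives, -0.83 for growth factor receptors, 0.0722 for megakaryocyte and leukocyte markers and 1.95 for pluripotent markers. With all spots in the background model they were 0.0341 for other blood factors, -0.34 for growth factor receptors and 1.90 for pluripotent markers, and with the authors' values -0.34 for growth factor receptors, 0.21 for megakaryocyte and leukocyte markers and -1.36 for yolk sac endoderm. Without a filter they were -0.17 for growth factor receptors and 0.0424 for megakaryocyte and leukocyte markers, with both channels 0.50 for other blood factors and -0.0514 for megakaryocyte and leukocyte markers, and with the widened filter 0.0118 and 0.17 for the same lists. The dye term gave 0.0429 for other blood factors. Leaving out each replicate gave -0.51 to -0.26 for complex partners and -0.0428 to 0.0584 for other blood factors. There were 3 arrays of 1 slide with unequal dyes, and 5 of 11 member probes lay near background. Whether small changes would be called under these limits was not tested.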
